A study of Macaca fascicularis with 9 samples.

Results

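This section describes 57 genes of cell adhesion among the 29,128 features counted in nuclei of monkey thalamus. They were chosen by name: the numbered cadherins (CDH), all protocadherins (PCDH), the contactins (CNTN), the contactin-associated proteins (CNTNAP), the neurexins (NRXN) and the neuroligins (NLGN) that the feature list holds. The set has 5 classical type I cadherins, 13 type II cadherins, 4 further cadherins, 7 delta protocadherins, 10 clustered protocadherins, 2 further protocadherins, 6 contactins, 3 contactin-associated proteins, 3 neurexins and 4 neuroligins. Frozen tissue came from 9 female cynomolgus monkeys, 3 in each of 3 groups. The saline group received 4 intravenous doses of saline, 1 every second week. The ASO group received 1 intrathecal dose of 4 mg of an ASO, an antisense oligonucleotide, here directed at the nuclear noncoding RNA MALAT1. The OTV group was given OTV:MALAT1 into a vein 4 times on the same biweekly schedule, at 30 mpk. OTV stands for oligonucleotide transport vehicle, a protein that binds the transferrin receptor and carries an oligonucleotide into the brain. Tissue was collected 2 weeks after the last dose. No group received saline by the intrathecal route, and route, agent and number of doses differ together, so their parts cannot be told apart.

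Cadherins are calcium-dependent adhesion proteins. Classical type I and type II members join cells through their outer domains and link to the actin skeleton through catenins, and most bind their own kind. Delta protocadherins are single genes with their own weak adhesion and signalling, while clustered protocadherins come from gene arrays that give single neurons a surface identity. Contactins are immunoglobulin proteins on a lipid anchor that pair with contactin-associated proteins at the edges of the node of Ranvier, where myelin meets the axon. Neurexins and neuroligins are the partner proteins on the facing sides of a synapse, and glial cells also make several of them.

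The authors' table names 61,578 oligodendrocytes (77.0% of 79,994 nuclei), 6233 oligodendrocyte precursor cells (OPCs), 5727 myeloid nuclei, 4411 astrocytes, 1714 neurons and 331 unknown nuclei. Libraries held 20.0 to 98.9 M UMIs (M for mega, UMIs for unique molecular identifiers, each standing for a counted RNA molecule). The targeted RNA checked the labels: in oligodendrocytes MALAT1 took 6.42%, 6.87% and 6.48% of UMIs in the saline animals. It took 4.73%, 4.22% and 5.72% in the ASO animals and 3.95%, 3.47% and 3.03% in the OTV animals. The OTV values lay below all saline ones in each of the 5 named types. ASO values overlapped saline in OPCs (3.55% to 3.94% against 3.22% to 4.61%), astrocytes (4.95% to 6.28% against 4.66% to 7.46%) and neurons (3.38% to 7.61% against 4.81% to 6.23%, with ASO replicate 3 the highest). A score of astrocyte genes, telencephalic minus non-telencephalic on a log2 scale, was 2.16 in saline replicate 3 and 1.73 in ASO replicate 3. It was -0.853 in saline replicate 1 and from -5.36 to -3.55 in the other 6 animals. Those 3 libraries also held the most neurons, 527, 467 and 364, against 17 to 112 in the others. Neuron markers summed to 624 CPM (counts per 1e6 UMIs) in oligodendrocytes of saline replicate 3 and to at most 228 CPM in those of any other animal. Across libraries 760 barcode sequences were shared, by 1.90% of nuclei.

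Levels are given as CPM, relative to all UMIs of that animal's nuclei of 1 type, with mean and SD over the 9 animals. The cell types were clustered on these same genes, so levels between types are a description without a test. Of the 57 genes, 38 reached a mean of 20 CPM in at least 1 of the 5 named types. Neurons were highest for 15 of the 38, OPCs for 14, astrocytes for 7, oligodendrocytes for 2 and myeloid nuclei for none. At 20 CPM or more there were 35 of the genes in neurons, 32 in OPCs, 23 in astrocytes, 21 in oligodendrocytes and 16 in myeloid nuclei. All 6 contactins and all 3 contactin-associated proteins reached that level somewhere, as did 11 of 13 type II cadherins, but only 2 of 5 type I cadherins and 3 of 10 clustered protocadherins. Under 1 CPM in every type were 4 genes. The heat map of mean levels shows these blocks.

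**Figure D1:**
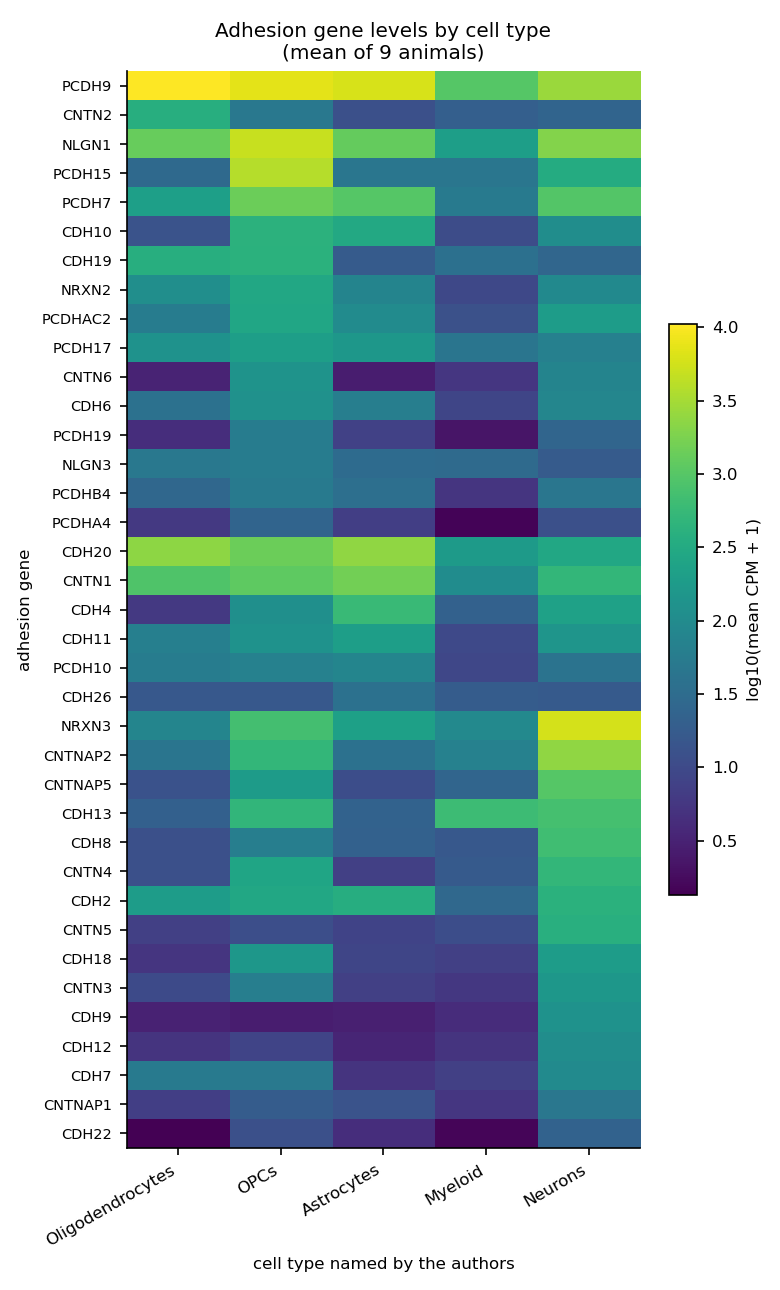
Mean level over 9 animals of 37 adhesion genes with at least 20 CPM in some cell type, as log10(mean CPM + 1) on a colour scale. Rows are genes ordered by the cell type in which they were highest, columns are the 5 cell types named by the authors. Neurons are the highest column for 15 genes, OPCs for 14, astrocytes for 6 and oligodendrocytes for 2.

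Oligodendrocytes had a short list. CNTN2, the contactin that oligodendrocytes and axons place beside the node, stood at 369 ± 54.6 CPM (SD, n = 9), with 289 in the lowest, 354 in the median and 448 in the highest animal. OPCs came next for CNTN2 with 48.0 ± 13.5 CPM, and the ranges of the 2 types did not overlap. PCDH9, a delta protocadherin, was highest in oligodendrocytes too, at 10530 ± 2136 CPM against 7283 ± 737 CPM in OPCs, with overlapping ranges. CDH20 and CDH19, both type II cadherins, each stood at a similar level in another glial type, but not in all of them. CDH20 averaged 2302 CPM in oligodendrocytes and 2400 CPM in astrocytes, a difference below the SDs of 355 and 386, and 177 CPM in myeloid nuclei. CDH19 averaged 370 CPM in oligodendrocytes and 407 CPM in OPCs, again within the spread, and 16.7 CPM in astrocytes.

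OPCs held the broadest set among the glial types. PCDH15, a protocadherin known from the tip links of hair cells and used as a marker of OPCs, ran from 3014 through a median of 3776 to 4460 CPM, while neurons averaged 334 ± 216 CPM and every other type under 50 CPM. NLGN1, a neuroligin of excitatory synapses, averaged 4972 ± 513 CPM in OPCs and 1994 ± 515 CPM in neurons. NRXN2 stood at 292 ± 80.3 CPM in OPCs against 112 ± 39.9 CPM in oligodendrocytes, the next type. PCDH19, a delta protocadherin, averaged 57.9 ± 10.4 CPM and PCDHA4, a clustered alpha member, 23.1 ± 4.55 CPM. CNTN6 varied most: its lowest OPC value was 37.0 CPM, its median 146 and its highest 179 CPM. OPCs were thus the type with the highest level of both NLGN1 and NRXN2.

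Among the genes highest in astrocytes, CDH4, or R-cadherin, a type I cadherin, averaged 593 ± 264 CPM in astrocytes and 228 ± 185 CPM in neurons, and its animals spread from 256 through 560 to 999 CPM. CNTN1, a contactin that axons carry beside the node and that glia also make, averaged 1535 ± 431 CPM in astrocytes, 1157 ± 199 CPM in OPCs and 897 ± 180 CPM in oligodendrocytes. CDH11 was narrow in astrocytes, at 201 ± 17.5 CPM, with neurons next at 143 ± 73.3 CPM. CDH26 stood at 37.3 ± 10.5 CPM and PCDH10 at 77.5 ± 25.8 CPM, and the PCDH10 ranges of astrocytes and OPCs overlapped.

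Neurons had the steepest contrasts with the other types. NRXN3 averaged 5960 ± 1661 CPM in neurons and 720 ± 320 CPM in OPCs. CNTN5, a contactin of neurons, averaged 387 ± 206 CPM against 10.5 ± 4.25 CPM in OPCs. CDH8, CDH9 and CDH12 are type II cadherins that mark subsets of neurons. CDH8 averaged 664 ± 217 CPM in neurons and at most 60.7 CPM elsewhere, CDH12 averaged 107 ± 61.8 CPM and at most 7.55 CPM elsewhere. CDH9 ranged from 8.11 CPM through a median of 38.3 to 391 CPM in neurons, so its mean of 129 CPM rested on a few animals. CNTNAP2 and CNTNAP5 averaged 2403 ± 698 and 980 ± 169 CPM. CNTNAP1, the axonal partner of CNTN1 at the paranode, averaged 45.5 ± 13.7 CPM in neurons and 6.20 ± 2.47 CPM in oligodendrocytes. Only 18 and 17 neurons came from ASO replicates 1 and 2, so the neuronal ranges include those thin samples.

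Myeloid nuclei, which include microglia, led for none of the 38 genes. CDH13, a cadherin on a lipid anchor, averaged 631 ± 503 CPM in them. NLGN3 stood at 28.5 ± 13.02 CPM beside 30.2 ± 4.73 CPM in astrocytes and 47.1 ± 6.54 CPM in oligodendrocytes. Genes abundant in other glia were also counted in myeloid nuclei, PCDH9 at 991 ± 818 CPM and CDH20 at 177 ± 136 CPM. Those SDs were close to the means, and oligodendrocyte marker genes summed to between 684 and 1579 CPM in the same myeloid nuclei. RNA from other cells in a droplet and RNA made by the nucleus were not separated.

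Within oligodendrocytes the authors' clusters 0, 1, 2, 3, 5, 8 and 10 hold between 1919 and 15849 nuclei each. Several adhesion genes formed a gradient over them, while others had smaller steps. CNTN1 averaged 1713 ± 342 CPM in cluster 1 and 1315 ± 323 CPM in cluster 2. It averaged 657 ± 188 CPM in cluster 0, 158 ± 82.7 CPM in cluster 3 and 53.5 ± 31.0 CPM in cluster 5. In cluster 10 it averaged 33.6 ± 24.2 CPM over the 8 animals with at least 20 nuclei there. NLGN1 went from 2211 ± 470 CPM in cluster 1 to 196 ± 217 CPM in cluster 5, PCDH7 from 475 ± 245 to 27.2 ± 24.97 CPM and CDH7 from 112 ± 36.4 to 3.49 ± 2.02 CPM. PCDH17 and CDH19 had the same order with smaller steps, from 179 ± 51.1 to 59.6 ± 27.8 CPM and from 472 ± 125 to 232 ± 87.8 CPM.

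For CNTN1, NLGN1, PCDH7, CDH7, PCDH17 and CDH19, clusters 1 and 2 lay above clusters 3 and 5 in 9 of 9 animals. The ratio of cluster 1 to cluster 5 for CNTN1 was 12.7 in the lowest animal, 29.6 in the median and 141 in the highest. For CDH7 it was 17.1, 36.2 and 87.1, for PCDH7 9.60, 25.9 and 56.1. NLGN1 had ratios of 2.69, 19.4 and 101, PCDH17 of 1.35, 3.30 and 5.57, and CDH19 of 1.69, 2.00 and 2.61. Clusters came from these same counts, so the gradient is a description. Other cells' markers were also counted in clusters 1 and 3, with overlapping ranges. Neuron markers summed to 165 to 814 CPM in cluster 1 and to 62.4 to 424 CPM in cluster 3. OPC markers summed to 86.1 to 253 CPM and 11.8 to 190 CPM in the same clusters, and the part of other cells' RNA was not tested.

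CDH6 and NRXN2 ran the other way. CDH6, a type II cadherin, averaged 19.2 CPM in cluster 1, 71.5 ± 51.1 CPM in cluster 5 and 72.5 ± 39.6 CPM in cluster 10. NRXN2 averaged 77.3 ± 19.6 CPM in cluster 1, 156 ± 49.5 CPM in cluster 5 and 175 ± 58.4 CPM in cluster 10. For both genes clusters 1 and 2 lay below clusters 3 and 5 in 9 of 9 animals, with median ratios of cluster 1 to cluster 5 of 0.290 for CDH6 and 0.479 for NRXN2. OTV replicate 1 was low for CDH6 throughout, with 4.36 CPM over all oligodendrocytes against 14.8 to 99.1 CPM in the other 8 animals. Steps between clusters were smaller for PCDH9, CDH20 and CNTN2. PCDH9 averaged between 9105 and 11184 CPM, CDH20 between 2024 and 2690 CPM, and CNTN2 between 340 and 418 CPM. The median ratio of cluster 1 to cluster 5 was 0.940 for PCDH9, 0.878 for CDH20 and 1.00 for CNTN2. Clusters 1 and 2 lay below clusters 3 and 5 in 7 of 9 animals for CDH20, 5 for PCDH9 and 3 for CNTN2.

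By the rule for cluster genes, PCDH15 was highest in cluster 8, at 59.6 ± 75.8 CPM with a median of 37.6 CPM over 8 animals, and CDH10 in cluster 10, at 22.4 ± 21.3 CPM. In both the SD was near or above the mean. OTV replicate 2 had 240 CPM of PCDH15, from 10 UMIs in 21 nuclei, and the mean of the other 7 animals was 33.8 ± 21.9 CPM, under the 36.6 CPM of cluster 2. Saline replicate 2 had 55.6 CPM of CDH10, and without it the mean of the other 7 was 17.7 ± 17.9 CPM, under the 20 CPM of the rule. Cluster 8 drew 1657 of its 2768 nuclei from OTV replicate 1 and 1 from OTV replicate 3, and the median UMIs per nucleus ran from 1128 to 3595 over its animals. The plot of levels by cluster shows both kinds of gradient beside PCDH9.

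**Figure D2:**
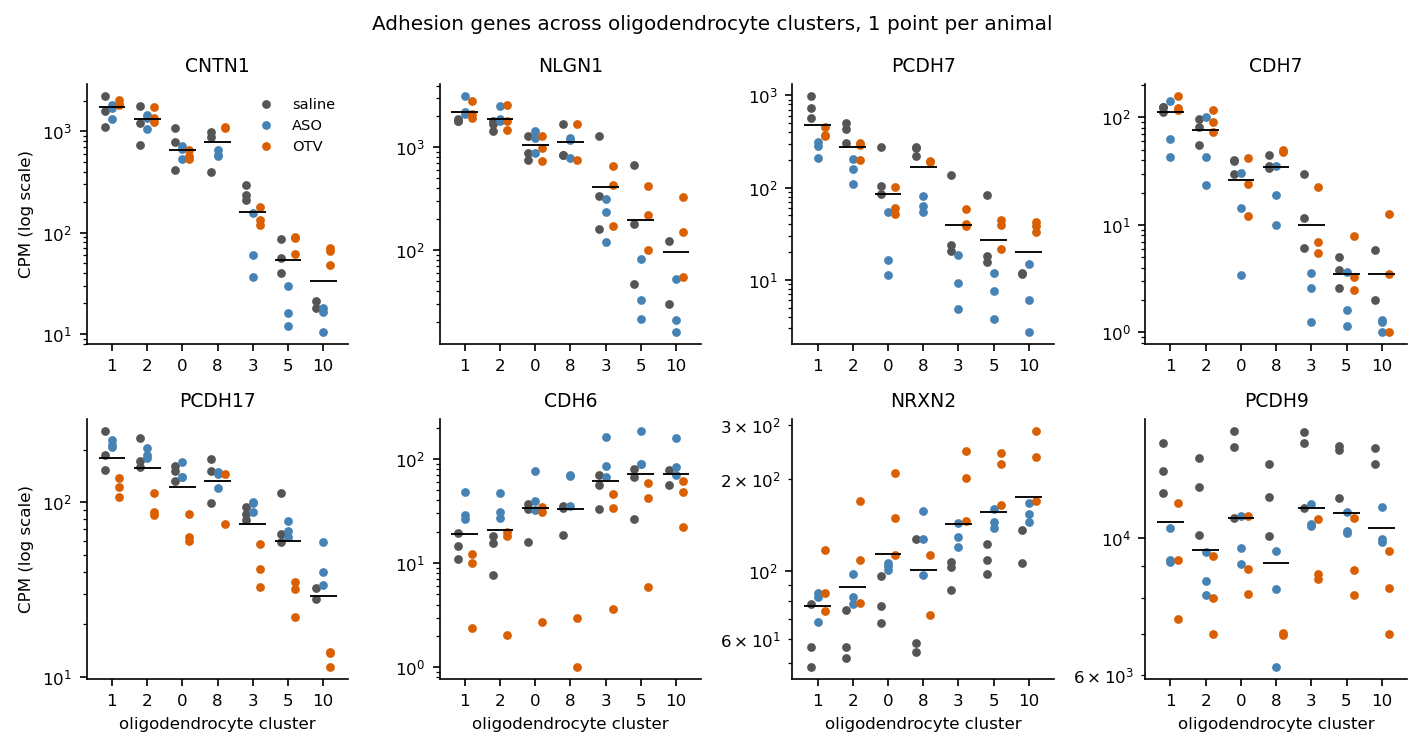
Level in CPM (log axis, values under 1 drawn at 1) of 8 adhesion genes in the 7 oligodendrocyte clusters, 1 point per animal with at least 20 nuclei in the cluster, coloured by group. Lines mark the mean. CNTN1, NLGN1, PCDH7, CDH7 and PCDH17 have lower means in clusters 3, 5 and 10 than in cluster 1, CDH6 and NRXN2 have higher ones, and PCDH9 averages between 9105 and 11184 CPM.

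The 3 groups were then compared with edgeR's quasi-likelihood test on UMIs summed per animal, in the 4 types with at least 20 nuclei in every animal: oligodendrocytes, OPCs, myeloid nuclei and astrocytes. The threshold for a call was 0.05, on p-values adjusted by Benjamini-Hochberg over all genes of the fit. Of the 57 adhesion genes 54 passed the filter on low counts in at least 1 type and 31 in all 4, which gave 175 pairs of gene and type. CDH16, PCDH12 and PCDHB1 were tested in none. The contrasts share animals, so their values are given side by side and not as independent results. Fewer transcripts per nucleus and a change in which nuclei of a type were sampled cannot be told apart in such sums.

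For ASO against saline, 1 of 175 pairs passed, or 0.571%, beside 0.237% of all pairs tested. In oligodendrocytes that is 1 of 52, or 1.92%, beside 0.394% of all genes. At an unadjusted p under 0.05 there were 30 of 175, and the DESeq2 Wald test called 8. The share of all genes at that threshold or in DESeq2 is not given here, so neither count can be set against the other genes. The edgeR count of adjusted calls was 0 without saline replicate 2, ASO replicate 1 or ASO replicate 2, and 0 with libraries thinned to equal totals. In single oligodendrocyte clusters edgeR called 3 of 46 in cluster 1 (all genes 0.477%), 1 of 43 in cluster 3 (0.334%) and 1 of 39 in cluster 5 (0.332%). It called 0 of 45 each in clusters 0 (0.286%) and 2 (0.244%).

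No adhesion gene passed in edgeR for this contrast in OPCs (0.262% of all genes), myeloid nuclei (0.197%) or astrocytes (0.0147%). At an unadjusted p under 0.05 there were 4, 6 and 5 genes, and the share of all genes at that threshold is not given. Of DESeq2's 8 calls, astrocytes had 0, myeloid nuclei and OPCs 1 each, and oligodendrocytes 6. Without both libraries of highest region score 1 passed in myeloid nuclei. The median log2 fold change over the adhesion genes was -0.21 for oligodendrocytes, -0.11 for OPCs, -1.04 for myeloid nuclei and -0.09 for astrocytes, beside -0.003 to 0.014 for all genes tested.

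For OTV against saline, 26 of 175 pairs passed, or 14.9%, beside 17.6% of all pairs tested, so the adhesion genes were called at about the rate of the other genes. By type, 9 of 52 passed in oligodendrocytes (17.3%, all genes 19.2%) and 10 of 47 in OPCs (21.3%, all genes 22.1%). In myeloid nuclei 4 of 34 passed (11.8%, all genes 12%) and in astrocytes 3 of 42 (7.14%, all genes 15.4%). Of the 26 calls 17 were higher and 9 lower in the OTV animals, while 7.31% of all pairs were called higher and 10.3% lower. They fell on 17 genes. Without saline replicate 3 the count was 43, and without both libraries of highest region score it was 47, of which 19 were in myeloid nuclei. Without saline replicate 1 it was 17. The share of all genes called in these refits is not given here, so their counts cannot be set against the other genes. Contactins had 5 higher and no lower calls in 22 pairs, of which 4 were CNTN2 and 1 was CNTN1. Clustered protocadherins had 3 higher and no lower in 23, type II cadherins 3 higher and 1 lower in 41, and neuroligins 2 higher and 1 lower in 13. Delta protocadherins had 1 higher and 4 lower calls in 24 pairs. Type I cadherins had no higher and 1 lower call in 15 pairs, contactin-associated proteins no higher and 1 lower in 12. Over all adhesion genes tested, the median log2 fold change was 0.05 for oligodendrocytes, -0.07 for OPCs, 0.76 for myeloid nuclei and 0.18 for astrocytes, beside -0.03 to -0.01 for all genes.

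CNTN2 was the gene called higher in all 4 types, and NRXN2 was called higher in 3. In oligodendrocytes CNTN2 stood at 289, 328 and 367 CPM in saline, 351, 329 and 354 CPM in ASO and 416, 448 and 441 CPM in OTV animals. All OTV animals lay above the other 6, with a log2 fold change against saline of 0.45 (SE 0.098, edgeR adjusted p = 0.0118). In OPCs CNTN2 rose by 0.84 on the log2 scale (SE 0.18, adjusted p = 0.00793), from 31.4, 46.1 and 28.0 CPM to 52.1, 65.7 and 67.8 CPM. In astrocytes it stood at 5.46, 3.86 and 6.04 CPM in saline and at 17.5, 13.3 and 20.8 CPM in OTV animals, which is 1.88 on the log2 scale (SE 0.32, adjusted p = 0.00546). In myeloid nuclei it went from 5.88, 5.62 and 19.9 CPM to 27.3, 32.2 and 49.1 CPM (log2 fold change 1.82, SE 0.48, adjusted p = 0.0368).

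The myeloid CNTN2 call was lost in 7 of 9 fits that leave out 1 animal, all but those without saline replicate 3 and ASO replicate 2, with an edgeR adjusted p of 0.0510 to 0.128, with only the 6 animals compared (0.0746) and in cluster 7 alone (0.0526). The calls in the other 3 types held without any 1 animal. For OTV against ASO, CNTN2 was called higher in oligodendrocytes and myeloid nuclei but not in OPCs or astrocytes. That myeloid call was lost in 5 of 9 fits that leave out 1 animal. Oligodendrocyte markers summed to 684 to 830 CPM in saline and 992 to 1579 CPM in OTV myeloid nuclei. They summed to 327 to 384 CPM and 451 to 695 CPM in astrocytes of the same groups, and their part in the CNTN2 values was not tested.

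NRXN2 rose in oligodendrocytes, OPCs and astrocytes of the OTV animals. In OPCs it stood at 238, 243 and 272 CPM in saline, 229, 219 and 245 CPM in ASO and 393, 355 and 434 CPM in OTV animals. The OTV values lay above all 6 others, with a log2 fold change against saline of 0.70 (SE 0.11, edgeR adjusted p = 0.0011). In oligodendrocytes the saline animals had 80.1, 68.1 and 88.0 CPM and the OTV animals 110, 147 and 200 CPM, which is 0.99 on the log2 scale (SE 0.19, adjusted p = 0.00711). Both calls held without any 1 animal, and 4 of 5 oligodendrocyte clusters passed alone, all but cluster 1 (0.0588). In astrocytes NRXN2 went from 42.5, 53.1 and 68.1 CPM to 91.7, 102 and 107 CPM (log2 fold change 0.92, SE 0.27, adjusted p = 0.0469). ASO replicate 2, at 105 CPM, lay inside the OTV range there. The astrocyte call was lost without saline replicate 1, saline replicate 2, ASO replicate 3 or any 1 OTV animal (adjusted p 0.0580 to 0.156) and with the region score in the fit (0.0582).

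A neuroligin of OPCs changed as well. NLGN2, a neuroligin of inhibitory synapses, was rare in OPCs at 3.41, 3.47 and 2.20 CPM in saline and 1.61, 1.49 and 1.62 CPM in ASO animals. It stood at 17.9, 9.33 and 17.1 CPM in OTV animals, above all others. These levels rested on 8 to 32 UMIs in each saline or ASO animal and on 21 to 100 UMIs in each OTV animal. The log2 fold change was 2.30 (SE 0.31, edgeR adjusted p = 0.000528). The call held without any 1 animal.

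Of the classical cadherins in OPCs, CDH2, or N-cadherin, fell from 329, 322 and 352 CPM in saline to 269, 221 and 209 CPM in OTV animals (log2 fold change -0.47, SE 0.11, edgeR adjusted p = 0.0137). CDH10, a type II cadherin, fell from 482, 472 and 487 CPM to 380, 342 and 286 CPM (-0.47, SE 0.12, adjusted p = 0.0186). The groups did not overlap in either gene. The CDH2 call held without any 1 animal and missed the threshold with the region score in the fit (adjusted p = 0.0536). The CDH10 call was lost without saline replicate 1 (0.0512) or OTV replicate 3 (0.0518) and with the region score (0.0667). PCDH10, a delta protocadherin, fell from 67.3, 85.2 and 77.2 CPM to 52.3, 44.4 and 61.4 CPM (-0.49, SE 0.14, adjusted p = 0.0296). It was lost without saline replicate 2, saline replicate 3, OTV replicate 1 or OTV replicate 2 (0.0554 to 0.0950). The summed neuron markers of OPCs were 1021 to 1307 CPM in saline and 769 to 906 CPM in OTV animals, and their part in these values was not tested.

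In oligodendrocytes the gene with the smallest adjusted p was PCDH17, a delta protocadherin, which fell. It stood at 171, 135 and 146 CPM in saline, 144, 144 and 180 CPM in ASO and 78.5, 77.8 and 70.5 CPM in OTV animals. The 3 OTV animals lay close together below the other 6, with a log2 fold change against saline of -0.95 (SE 0.13, edgeR adjusted p = 0.00153). All 5 oligodendrocyte clusters tested passed alone, and no left-out animal ended the call. CNTNAP1 fell from 6.63, 7.23 and 8.97 CPM to 3.48, 3.66 and 3.12 CPM (-1.09, SE 0.25, adjusted p = 0.0157). This call was lost without OTV replicate 3 (0.0553), with thinned libraries (0.101), with the region score (0.0543) and in clusters 3 (0.0577) and 5 (0.311) alone. PCDH9 stood at 13295, 14299 and 10920 CPM in saline and 7764, 8596 and 10588 CPM in OTV animals (-0.47, SE 0.14, adjusted p = 0.0464). It was lost without saline replicate 1 or 2, ASO replicate 1 or OTV replicate 1 or 2 (0.0672 to 0.141) and with only the 6 animals compared in the fit (0.0619), and 3 of 5 clusters did not pass alone (0.0523 to 0.0697). For OTV against ASO, PCDH9 was not called in oligodendrocytes.

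PCDHGA10, a clustered gamma member, was rare and rose in oligodendrocytes and OPCs. It stood at 0.274, 0.293 and 0.417 CPM in saline and at 1.08, 0.915 and 2.10 CPM in OTV oligodendrocytes, from 2 to 53 UMIs per animal (log2 fold change 2.21, SE 0.42, edgeR adjusted p = 0.00701). In OPCs it went from 1.33, 1.41 and 1.10 CPM to 2.86, 7.99 and 8.55 CPM (2.24, SE 0.48, adjusted p = 0.0073). Both held without any 1 animal. Of the 2 oligodendrocyte clusters tested alone, cluster 2 passed and cluster 1 did not, with a log2 fold change of 1.40 (adjusted p = 0.204). Reads of clustered protocadherins can be shared among near-identical members and common end exons, so which member rose is uncertain. PCDH1, a delta protocadherin, rose in oligodendrocytes from 3.43, 5.05 and 3.54 CPM to 7.38, 7.99 and 6.72 CPM (0.91, SE 0.22, adjusted p = 0.0204). It was lost without saline replicate 1 (0.0860) or OTV replicate 2 (0.0609), with thinned libraries (0.0579), with the region score (0.0792) and without both libraries of highest region score (0.0536). It passed in none of the 5 clusters tested alone, where the log2 fold change ran from 0.34 in cluster 5 to 1.16 in cluster 2 (0.0690 to 0.613).

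The remaining calls are named to complete the list, after their values were seen. In oligodendrocytes NLGN3 rose by 0.37 (SE 0.11, edgeR adjusted p = 0.0398) from 43.9, 45.7 and 42.7 CPM to 60.8, 53.1 and 51.1 CPM, and was lost without any 1 animal but OTV replicate 3 (0.0602 to 0.113), with thinned libraries (0.0572), with the region score (0.135), without both libraries of highest region score (0.116), without the filter on low counts (0.102) and with only the 6 animals compared in the fit (0.0887). None of 5 clusters passed alone (0.0572 to 0.321). PCDHB8, a clustered beta member under 2 CPM, was called there (adjusted p = 0.0291) with overlapping groups. It was lost without saline replicate 1 or 2 or OTV replicate 2 or 3 (0.0648 to 0.140) with the 6 animals alone (0.0550) and in cluster 0 alone (0.118). In OPCs PCDH17 fell by 0.35 on the log2 scale (adjusted p = 0.039) and was lost without saline replicate 1 or 3 or OTV replicate 2 or 3 (0.0811 to 0.103), with the region score (0.164), with the 6 animals alone (0.0506), without both libraries of highest region score (0.109) and in cluster 4 alone (0.0670). CDH22 rose there by 0.89 (adjusted p = 0.0421) and was lost without saline replicate 2 or 3, ASO replicate 1 or any 1 OTV animal (0.0623 to 0.124), with thinned libraries (0.166), with the region score (0.183), without those 2 libraries (0.0502) and without the filter (0.0519).

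In myeloid nuclei and astrocytes the call with the smallest adjusted p was CDH19. CDH19, a type II cadherin known from glia of the peripheral nerve, stood at 11.2, 8.71 and 23.9 CPM in saline myeloid nuclei and 8.17, 10.6 and 17.7 CPM in ASO ones. In the OTV animals it stood at 94.6, 80.5 and 63.7 CPM, a log2 fold change against saline of 2.49 (SE 0.39, edgeR adjusted p = 0.00427). In astrocytes it stood at 5.85, 5.04 and 12.1 CPM in saline, 3.59, 4.94 and 6.60 CPM in ASO and 43.1, 36.4 and 32.7 CPM in OTV animals, which is 2.42 on the log2 scale (SE 0.36, adjusted p = 0.0033). Oligodendrocyte markers summed to 421 to 675 CPM in ASO astrocytes, against 327 to 384 CPM in saline and 451 to 695 CPM in OTV ones, and their part in the CDH19 values was not tested. The OTV animals lay above all others in both types, every cluster tested alone passed, and no left-out animal ended either call. In oligodendrocytes, where CDH19 was abundant, its log2 fold change was 0.68 and in OPCs -0.32, neither past the threshold. The log2 fold changes differed between types (interaction of type and treatment, edgeR adjusted p = 7.9e-06). That test called 6 of 49 adhesion genes for OTV against saline, beside 3.53% of all genes. It called 14 for OTV against ASO, beside 10.4%, and 1 for ASO against saline, beside 0.957%.

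CNTN1 rose in myeloid nuclei, from 45.6, 39.6 and 94.9 CPM in saline to 237, 227 and 192 CPM in OTV animals (log2 fold change 1.85, SE 0.32, edgeR adjusted p = 0.00827). The ASO animals had 29.1, 22.2 and 38.8 CPM, and no left-out animal ended the call. Median UMIs per myeloid nucleus were 4374.5, 4450 and 3129 in saline and 4505, 5737 and 4320 in ASO animals. They were 3381, 2787 and 1543 in OTV animals, and the part of depth in the myeloid levels of any contrast was not tested. Saline replicate 3 was the highest of its group for CNTN1, CDH19, CNTN2 and PCDH9 in myeloid nuclei. PCDH9 stood there at 364, 492 and 1313 CPM in saline and at 1762, 1985 and 2195 CPM in OTV animals, without passing the threshold (log2 fold change 1.41, adjusted p = 0.0906). OPC markers in the same myeloid nuclei summed to 23.2 to 122 CPM in saline, 15.3 to 36.1 CPM in ASO and 92.9 to 132 CPM in OTV animals. Oligodendrocyte markers summed to 878 to 1432 CPM in ASO myeloid nuclei, where PCDH9, CNTN1 and CDH19 averaged 270, 30.0 and 12.1 CPM against 723, 60.1 and 14.6 CPM in saline. The part of RNA from other cells in these rises was not tested.

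NLGN3 was the myeloid gene that fell. It stood at 31.9, 31.2 and 27.9 CPM in saline, 46.5, 40.4 and 39.1 CPM in ASO and 18.1, 13.4 and 7.96 CPM in OTV animals, so that the 3 groups did not overlap. Against saline the OTV animals differed by -1.15 on the log2 scale (SE 0.25, edgeR adjusted p = 0.0153). The call was lost without saline replicate 1 (0.0557) or OTV replicate 2 (0.0612). Of the 2 myeloid clusters tested alone, cluster 9 passed (-1.44) and cluster 7 did not (-0.97, adjusted p = 0.0679). Summed myeloid markers were 4230 to 4970 CPM in saline, 3926 to 4887 CPM in ASO and 3224 to 4013 CPM in OTV myeloid nuclei, and their part was not tested. The plots of OTV against saline and of the levels by animal show these genes.

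**Figure D3:**
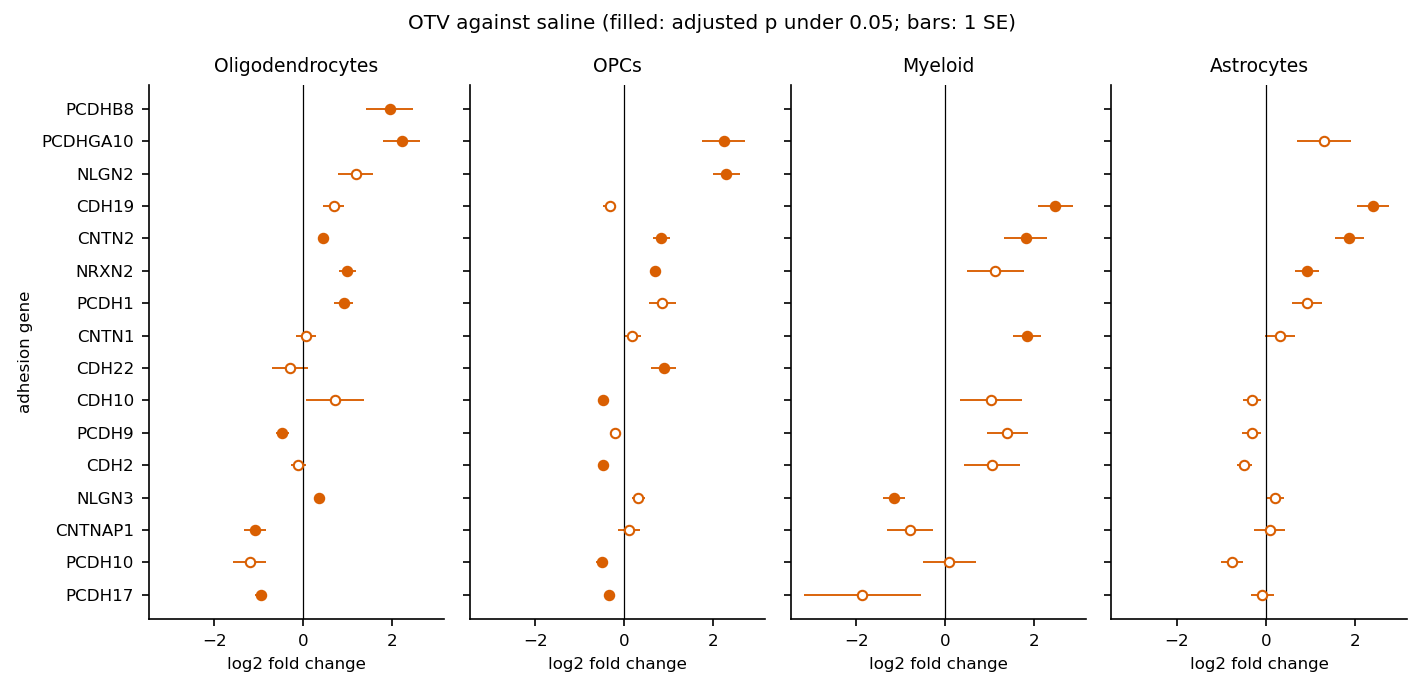
Log2 fold change of OTV against saline (points) with 1 SE (bars) for 16 adhesion genes called in at least 1 cell type, in the 4 types tested. Filled points have an edgeR adjusted p under 0.05 and a missing point means that the gene did not pass the filter; CNTN2 is filled in all 4 panels.

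**Figure D4:**
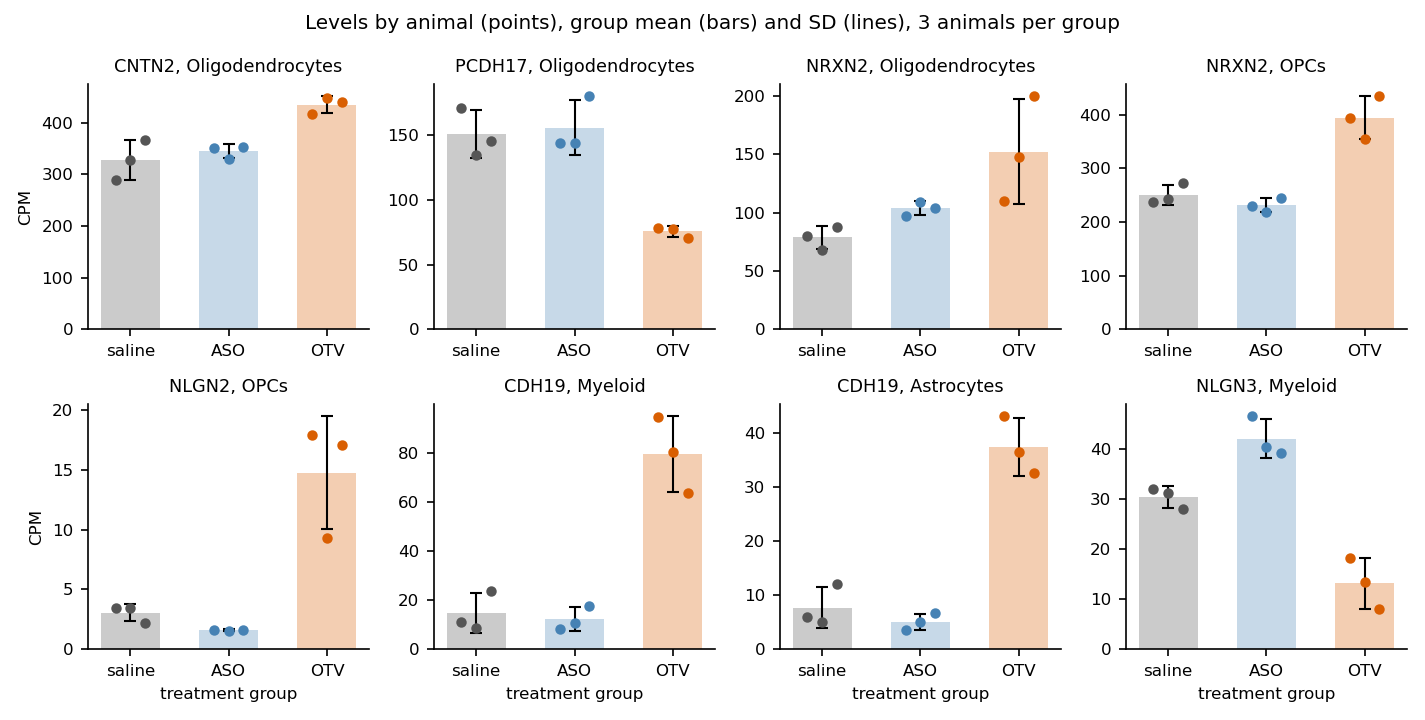
Level in CPM by treatment group for 8 pairs of gene and cell type: points are animals, bars group means and lines SD, 3 animals per group. PCDH17 in oligodendrocytes and NLGN3 in myeloid nuclei are lowest in the OTV animals, and the other 6 panels are highest in the OTV animals.

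For OTV against ASO, 42 of 175 pairs passed, or 24.0%, beside 24.3% of all pairs tested, 36 of them higher and 6 lower in the OTV animals. Of all pairs 10.8% were called higher and 13.5% lower. In oligodendrocytes 17 of 52 passed (32.7%, all genes 26.3%), in OPCs 7 of 47 (14.9%, all genes 27.2%), in myeloid nuclei 11 of 34 (32.4%, all genes 20.5%) and in astrocytes 7 of 42 (16.7%, all genes 22.0%). The called pairs fell on 29 genes, and 19 of the 42 held without any 1 animal. The count was 24, 26 and 25 without ASO replicate 1, ASO replicate 2 and OTV replicate 3, and 56 without both libraries of highest region score. For these refits too the share of all genes called is not given, so their counts stand without that comparison. Contactins had 9 higher and no lower calls in 22 pairs, type II cadherins 8 higher and no lower in 41, and clustered protocadherins 7 higher and no lower in 23. Delta protocadherins had 4 higher and 2 lower calls in 24 pairs and neuroligins 3 higher and 1 lower in 13. Type I cadherins had no higher and 1 lower call in 15 pairs, contactin-associated proteins no higher and 1 lower in 12. Medians of the log2 fold change were 0.67 for oligodendrocytes, 0.01 for OPCs, 1.72 for myeloid nuclei and 0.36 for astrocytes, beside -0.031 to -0.003 for all genes.

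In oligodendrocytes PCDH17 was 75.6 ± 4.41 CPM in OTV and 156 ± 21.0 CPM in ASO animals (SD, n = 3 each; log2 fold change -0.95, edgeR adjusted p = 0.00101), and CNTNAP1 fell by 1.05 on the log2 scale (adjusted p = 0.0131). NLGN2, PCDHGA10 and PCDH19 rose from ASO means of 0.439, 0.333 and 1.31 CPM, by 2.11, 2.11 and 1.96 (adjusted p = 0.00399, 0.00423 and 0.0104). None of these 5 calls was lost without 1 animal, and CNTNAP1 was lost with thinned libraries (0.0553). In single clusters PCDH19 did not pass in clusters 2 (log2 fold change 0.99, adjusted p = 0.190) and 5 (1.33, 0.146), PCDHGA10 in cluster 1 (1.54, 0.105) or CNTNAP1 in cluster 5 (-0.83, 0.231).

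In OPCs NLGN2 was 14.8 ± 4.74 CPM in OTV and 1.57 ± 0.0753 CPM in ASO animals (SD, n = 3 each; log2 fold change 3.32, SE 0.33, edgeR adjusted p = 7.09e-05). NRXN2 rose by 0.86 (adjusted p = 0.000244), PCDHGA10 by 2.47 (0.00381) and PCDHAC2, a clustered alpha member, by 0.49 (0.00812), from 237 ± 14.2 to 311 ± 16.4 CPM. These calls held without any 1 animal. PCDH10 fell by 0.49 (adjusted p = 0.0265) and was lost without ASO replicate 1 or 2 or OTV replicate 1 or 2 (0.0527 to 0.0851). In OPC cluster 4 alone it did not pass, with a log2 fold change of -0.29 (0.127).

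In myeloid nuclei CNTN1 was 219 ± 23.5 CPM in OTV and 30.0 ± 8.32 CPM in ASO animals (SD, n = 3 each; log2 fold change 2.87, SE 0.34, edgeR adjusted p = 0.000878). CDH19 was 79.6 ± 15.5 against 12.1 ± 4.93 CPM (2.72, adjusted p = 0.00167) and PCDH9 was 1981 ± 217 against 270 ± 80.3 CPM (2.86, adjusted p = 0.00691). NLGN3 was lower, at 13.2 ± 5.07 against 42.0 ± 3.94 CPM (-1.57, adjusted p = 0.0023). Those 4 calls held without any 1 animal. CDH20 was 345 ± 60.2 against 74.7 ± 6.88 CPM (2.19, adjusted p = 0.0133) and was lost without ASO replicate 1 (0.0519). In astrocytes CDH19 was 37.4 ± 5.30 against 5.04 ± 1.51 CPM (3.01, SE 0.37, adjusted p = 0.001), a call that no left-out animal ended.

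Less stable astrocyte calls were CDH24, PCDHGA10 and CDH7, higher by 2.12, 2.71 and 1.91 from ASO means of 1.43, 0.750 and 1.81 CPM (edgeR adjusted p = 0.0147, 0.0172 and 0.0245), and CDH2, lower by 0.67 on the log2 scale (0.0251). CDH24 and PCDHGA10 were lost without ASO replicate 3 (0.0529 and 0.0550) or OTV replicate 3 (0.0840 and 0.0911), and CDH7 without ASO replicate 2 or 3 or OTV replicate 3 (0.0577 to 0.0772) and in cluster 6 alone (0.0691). CDH2 was lost without ASO replicate 1 or 2 or OTV replicate 2 or 3 (0.0632 to 0.103) and with the 6 animals alone (0.0528). CNTN4 was called higher in oligodendrocytes, myeloid nuclei and astrocytes, by 1.54, 1.96 and 1.69 (adjusted p = 0.0232, 0.0454 and 0.0461), and PCDHGA10 in oligodendrocytes, OPCs and astrocytes. In oligodendrocytes the CNTN4 call was lost without ASO replicate 1 or 2 or OTV replicate 2 or 3 (0.0625 to 0.0799). In myeloid nuclei it was lost without saline replicate 2 or those same 4 animals (0.0526 to 0.138) and without the filter (0.0734), and in astrocytes without any 1 ASO animal or OTV replicate 2 or 3 (0.0590 to 0.192) with thinned libraries (0.225) and in cluster 6 alone (0.0564). Alone, oligodendrocyte clusters 0 and 5 (0.0526 and 0.0522) and myeloid cluster 9 (0.0784) did not pass for CNTN4.

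Genes that work with the adhesion genes were counted from lists. Of 9 catenins, which tie cadherins to actin, 8 were in the table, and for OTV against saline 4 of their 31 pairs of gene and type rose and 2 fell, beside 7.31% higher and 10.3% lower over all pairs tested. Of 27 partners of neurexins and neuroligins 25 were in the table, with 8 higher and 8 lower calls in 79 pairs. All 11 contactin partners were in the table, with 5 higher and 3 lower calls in 36 pairs. The very large atypical cadherins (7 of 9 in the table) had 5 higher and no lower calls in 21 pairs, and the shedding enzymes (2 of 3) 1 higher call in 8. For ASO against saline 1 of the 175 partner pairs passed, beside 0.237% of all pairs, CASK in OPCs, a scaffold protein that binds neurexins, at 97.5 against 153 CPM (log2 fold change -0.70, SE 0.12, edgeR adjusted p = 0.0394).

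Named after their values were seen, ARVCF, a catenin, and DCHS1, an atypical cadherin, rose for OTV against saline in 3 and 4 types. ARVCF rose by 1.29 in oligodendrocytes, 0.88 in OPCs and 1.12 in astrocytes (edgeR adjusted p = 0.00171, 0.00396 and 0.017). DCHS1 rose by 1.16, 1.48, 2.00 and 1.51 in oligodendrocytes, precursors, myeloid nuclei and astrocytes (adjusted p = 0.0421, 0.00693, 0.0109 and 0.0281). LRRTM3, a neurexin ligand, was 169 CPM in OTV and 517 CPM in saline oligodendrocytes (-1.56, SE 0.19, adjusted p = 0.00101). NFASC, the glial and axonal partner of CNTN1, rose in OPCs from 388 to 757 CPM (1.01, SE 0.16, adjusted p = 0.00149) and in astrocytes from 66.6 to 208 CPM (1.70, SE 0.37, adjusted p = 0.0157). These partners were not refitted without single animals in the values given here. The part of RNA from other cells, such as oligodendrocyte RNA in astrocytes, was not tested for them.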

How the data were processed

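Single nuclei of monkey thalamus were sequenced on the 10x 3′ platform after sorting for DNA stain, per the labels' protocols. The submitters' processing notes list Cell Ranger 6.1.2, Seurat 4 and GRCh38.p13 without their roles, while many features carry macaque gene identifiers. The deposited matrix holds raw UMI counts per feature and nucleus. The deposited table gives each nucleus its animal, cell type, cluster, the percent of UMIs from ribosomal protein genes and a doublet score computed by the authors. Its doublet calls were 0, so no further nuclei were removed, and the smallest nucleus had 1018 UMIs. The sources used here do not state whether counting used strand.

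Counts were summed per animal and cell type. Groups were compared with edgeR 4.0.16 (quasi-likelihood test, TMM, filterByExpr, robust, all 9 animals per fit, R 4.3.3) and Benjamini-Hochberg adjustment over all genes of a fit. The interaction of type and treatment was fitted over 4 types with the animal as a block. DESeq2 1.42.0, other scalings and filters, thinning, a region-score term, left-out animals and single clusters were alternatives. Leaving out both libraries of highest region score was added after seeing the data. The scripts were tested on simulated data. Replicate numbers follow accession order.

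Genes were named by rule: per type up to 6 with at least 20 CPM and the highest ratio to the next type, per oligodendrocyte cluster up to 3 with a ratio of at least 1.5, and a short fixed list. Per contrast and type up to 4 rising and 4 falling calls with the smallest adjusted p were named, with genes called in at least 3 types and up to 4 interactions. The genes and lists were chosen with earlier results of these data known. No sequences are printed, and results for 1 of the genes are not reported here, though it is in the counts over all genes.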

Additional observations from a re-analysis of the deposited data

Results flagged for a closer look

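The difference between treatments was tested for a difference between cell types in 1 fit over 49 adhesion genes and all other genes. For OTV against saline 6 of the 49 passed, beside 3.53% of all genes. For OTV against ASO 14 passed, beside 10.4%, and for ASO against saline 1 passed, beside 0.957%. In the latter contrast 11 had an unadjusted p under 0.05, and the share of all genes at that threshold is not given. The adjusted p-values are from edgeR's quasi-likelihood test, and the contrasts share animals.

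CDH19 differed most between types by adjusted p. For OTV against saline (adjusted p = 7.9e-06) its log2 fold change was 0.68 for oligodendrocytes, -0.32 for OPCs, 2.49 for myeloid nuclei and 2.42 for astrocytes. For OTV against ASO (6.52e-07) it was 0.28, -0.19, 2.72 and 3.01 in the same order. NLGN3 had 0.37, 0.32, -1.15 and 0.21 for OTV against saline (0.00176) and 0.47, 0.16, -1.57 and 0.38 for OTV against ASO (2.71e-05), so myeloid nuclei moved against the other types. These calls held without any 1 animal.

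PCDH9 had -0.47, -0.21, 1.41 and -0.32 for OTV against saline (edgeR adjusted p = 0.0154) and -0.04, -0.08, 2.86 and -0.23 for OTV against ASO (5.37e-05). The first was lost without saline replicate 1 or 2 or any 1 OTV animal (0.0563 to 0.136), the second in no such fit.

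CNTN6 differed for ASO against saline (edgeR adjusted p = 0.00152), with a log2 fold change of -1.34 for oligodendrocytes, 0.97 for OPCs and -1.42 for myeloid nuclei. In OPCs it stood at 78.8, 37.0 and 134 CPM in saline and 179, 178 and 146 CPM in ASO animals. By type, CNTN6 was tested in oligodendrocytes, OPCs and myeloid nuclei but not in astrocytes, and no single type passed alone for this contrast. In myeloid cluster 9 it rests on 5, 4 and 5 UMIs in saline and 6, 4 and 2 UMIs in ASO animals. NLGN4Y differed for OTV against saline (0.021), with 0.86 in oligodendrocytes, 0.95 in OPCs and -0.99 in astrocytes. It was lost without saline replicate 1 or 2, ASO replicate 2 or OTV replicate 1 or 3 (0.0502 to 0.177). Its astrocyte values rest on 3 to 39 UMIs per animal. All animals were female, so reads counted under the name NLGN4Y are no evidence of a Y copy. Which gene these reads came from, such as the X copy, was not tested.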

How the results depend on the processing

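No paired analysis was possible because the labels give no number that links animals of different groups. For ASO against saline the count of 1 call became 8 with the DESeq2 Wald test, 0 after thinning, 2 without both libraries of highest region score, and 0 to 1 when 1 animal was left out. For OTV against saline the 26 calls ran from 21 to 47 over the other settings, with 47 without both of those libraries, and from 17 to 43 when 1 animal was left out. For OTV against ASO the 42 calls ran from 30 to 61 and, with 1 animal left out, from 24 to 56. The interaction counts of 1, 6 and 14 (ASO against saline, OTV against saline, OTV against ASO) became 3, 15 and 20 without both libraries of highest region score. With 1 animal left out they ran from 1 to 2, from 2 to 14 and from 11 to 19. Shares of all genes called in these other fits are not given here, so a change in the counts is not particular to adhesion genes. Of 48 named comparisons none changed direction. The call was lost in 81 of 432 fits without 1 animal, 31 of 105 fits of single clusters, 8 with the region score, 6 of 39 after thinning, 6 with only the 6 animals compared, 4 without both libraries of highest region score and 3 without the filter. None was lost with DESeq2. With shares averaged over nuclei, 40 genes in place of 38 reached 20 CPM in a type and 23 in place of 24 in an oligodendrocyte cluster. Depth limits the rare genes most: PCDHGA10 rests on as few as 2 UMIs in an animal's oligodendrocytes. Doublets, RNA from other cells and the region of tissue were not removed from any value.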

Other observations

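The values below were chosen after they were seen and come without a test. OPC cluster 13 (366 nuclei, 9 animals) had another adhesion profile than cluster 4 (5580 nuclei). CDH7 averaged 427 CPM in cluster 13, from 49.7 to 1246 CPM over animals, and 9.38 CPM in cluster 4. PCDH7 averaged 2925 ± 651 against 1285 ± 179 CPM, and CDH11 246 ± 79.0 against 117 ± 16.6 CPM. PCDH15 was lower in cluster 13, at 1837 ± 858 against 4067 ± 407 CPM, as were NRXN3, at 93.4 ± 70.4 against 786 ± 342 CPM, and CDH4, at 10.2 ± 6.60 against 126 ± 43.9 CPM. Over the 9 animals the ranges of the 2 clusters overlapped for CDH11 and did not for the other 5 genes. Oligodendrocyte markers summed to 1238 to 3563 CPM in cluster 13 and to 289 to 832 CPM in cluster 4.

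CDH13, which vascular cells carry, varied over animals in myeloid nuclei more than between groups. It stood at 1402, 461 and 933 CPM in saline, 266, 32.5 and 629 CPM in ASO and 1378, 175 and 406 CPM in OTV animals, with no contrast past the threshold. CNTN3 in oligodendrocytes stood at 43.4 CPM in saline replicate 1, from 2378 UMIs, and at 2.07 to 9.64 CPM in the other 8 animals.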
